A study of Mus musculus with 14 samples.

Results

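Sonic hedgehog pathway transcripts were followed in secondary neurospheres, neural stem and progenitor cell cultures that grow in suspension, regrown after passage. The members are 10 probe sets of 5 genes, chosen by identifier among the 45101 probe sets and 18194 annotated genes of the array: 1 for Shh, 2 for Ptch1, 3 for Hhip, 1 for Gli1 and 3 for Gli3. The platform annotation gave each of the 10 the gene it was chosen for. Another 3 probe sets of these genes, 1 each for Shh, Ptch1 and Hhip, are outside the chosen set and are given beside it. Spheres came from wild-type mice of the outbred CD-1 strain, and no group carried a transgene or received a treatment. Adult neocortex, adult striatum and adult subventricular zone (SVZ, a stem cell niche of the lateral ventricle wall) had 3 arrays each. Embryonic dorsal forebrain and ventral forebrain at E14.5 had 2 arrays each, and embryonic spinal cord had 1. The labels give no exact age for the adults. They also leave unsaid whether the arrays of a group stand for different animals or cultures, so the tests read array-to-array spread that may be technical only.

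In the hedgehog pathway, a secreted ligand such as Shh binds the receptor Ptch1, which otherwise holds the transducer Smo inactive. Released Smo shifts the Gli transcription factors from repressor to activator forms, and Gli1, Ptch1 and Hhip are themselves induced, so that their transcripts are widely used as readouts of the pathway. In the embryonic forebrain Shh is made ventrally and Gli3 acts mainly as a dorsal repressor. In the adult mouse SVZ, hedgehog signalling is known to act on neural stem cells, most of all on those of the ventral wall.

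Values are deposited array signals on a linear scale. A probe set counts as detected on an array where the deposited detection p was under 0.05, and it was tested if detected on at least 2 of the 14 arrays. Of the 10 probe sets, 8 were tested. Those left out were Ptch1 1439663_at, detected on 1 array, and Hhip 1437933_at, detected on the spinal cord array only. Differences are on the scale log2(signal + 27) after median-centring each array, which understates changes of dim probe sets, and a probe set is called where limma's Benjamini-Hochberg adjusted p over all 35211 tested probe sets was under 0.05. In these bulk samples, fewer cells of a type and less RNA per cell cannot be told apart.

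Median signals ranged from 222.1 to 334.8 over the arrays, and 60.2% to 68.6% of probe sets were detected. Region markers bore out the labels only in part. Six3, a ventral forebrain transcription factor, was 10.2-fold higher in ventral than dorsal spheres over both ages (adjusted p = 0.000577, limma), and it was the only 1 of 7 tested ventral forebrain genes called. Of the other 6, Dlx1 (2.43), Dlx2 (2.12), Gsx2 (1.77), Dlx5 (1.70) and Lhx6 (1.59) had positive log2 differences with adjusted p from 0.156 to 0.33, and Gsx1 had 0.10 (adjusted p = 0.981). Of 7 dorsal forebrain genes 0 were called over both ages, with log2 differences from -1.76 (Neurog2) to 0.49 (Emx2). Among adult spheres 2 dorsal genes, Emx2 and Lhx2, were called as higher in the ventral-derived spheres (log2 differences 1.92 and 1.18), while Tbr1 (-1.14), Eomes (-0.85), Neurog2 (-0.77), Emx1 (-0.09) and Pax6 (0.53) were not called. The spinal cord array alone carried high Hox signals (Hoxa5 2931, against at most 45.8 on the forebrain arrays). It also had the highest summed signal of 5 mesenchymal genes, 80350, against 507.4 to 30140 on the forebrain arrays, and of 3 skeletal muscle genes, 18760 against 45.6 to 765.4. The embryonic forebrain arrays differed by sample number. Over the tested probe sets, their mean correlation with the 9 adult arrays was 0.901 and 0.899 for number 1 (dorsal and ventral) and 0.836 and 0.811 for number 2. Results that rest on the embryonic arrays are therefore also given for each number alone, an alternative chosen after seeing the data. With 1 number alone, or with 1 embryonic array left out, an embryonic group has 1 array, which is assumed to vary like the other groups, so the p-values of these alternatives rest on a spread borrowed from them.

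**Figure D1:**
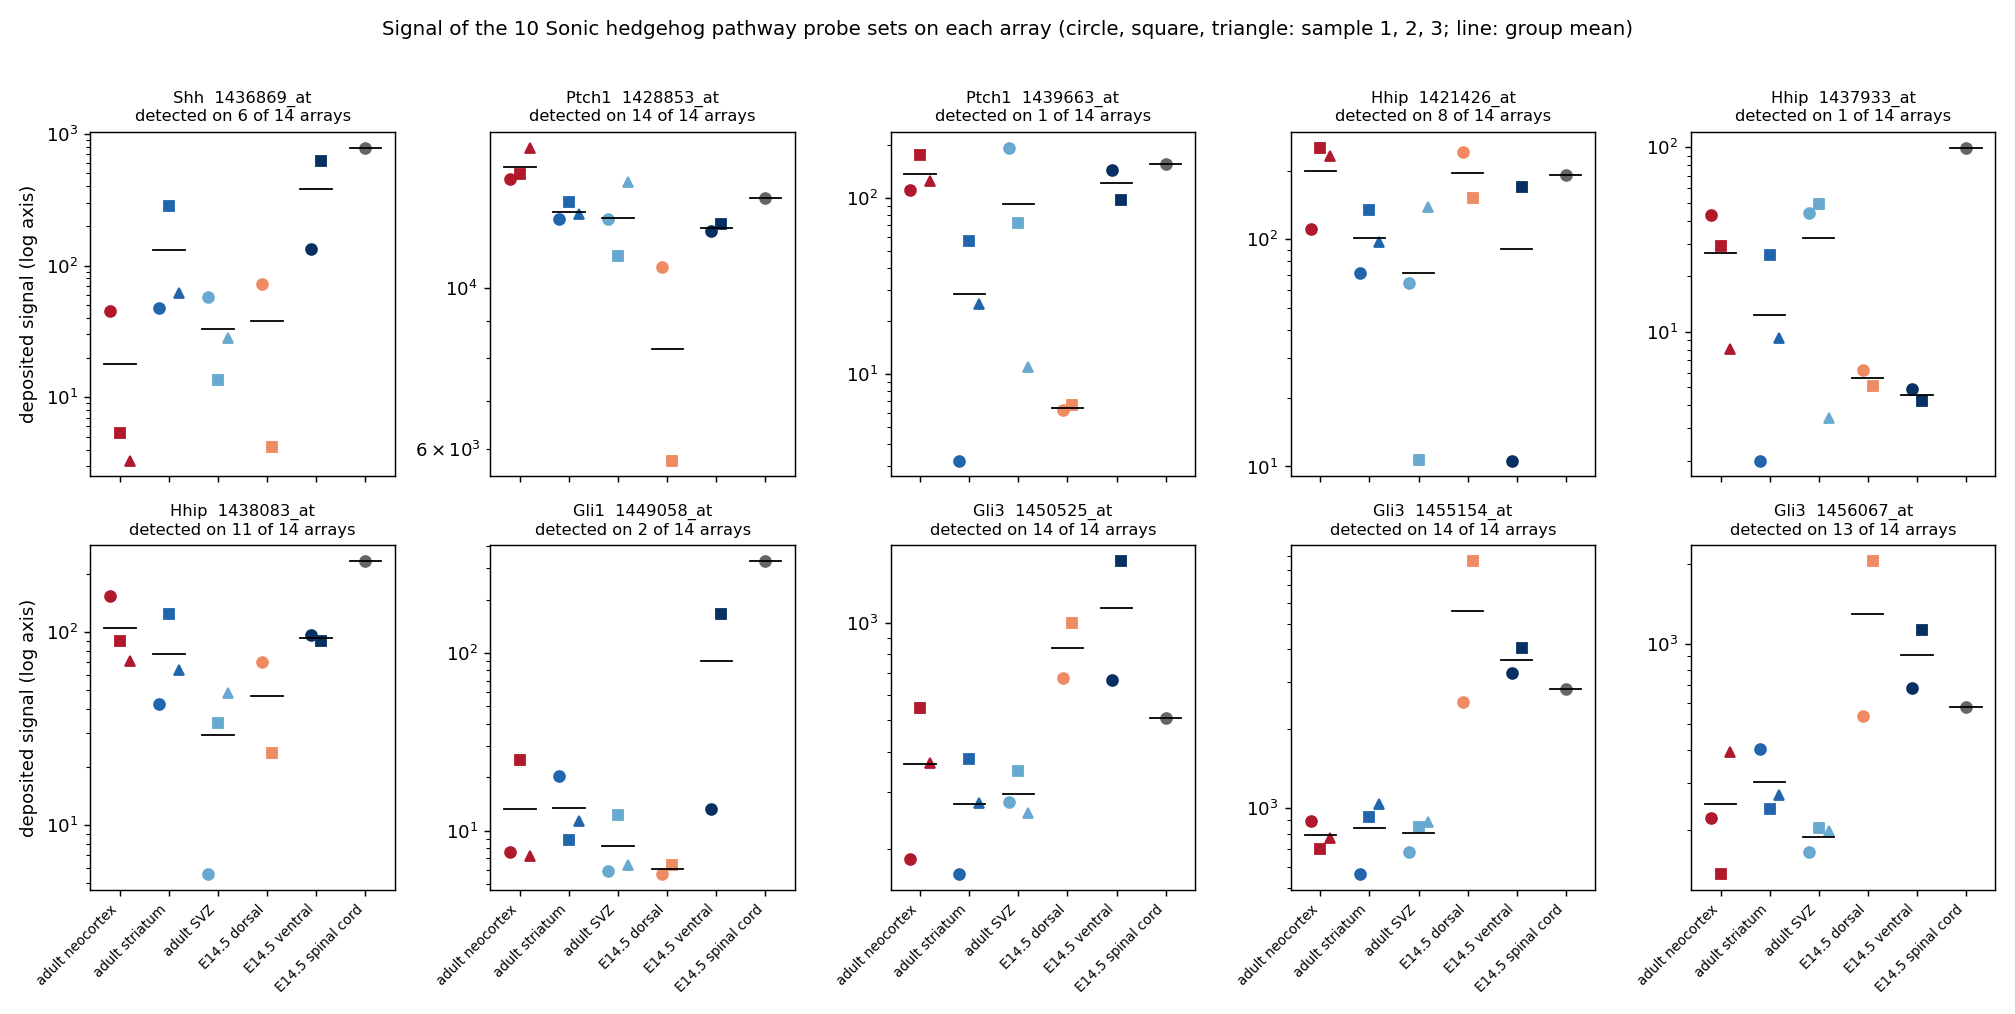
Deposited signal (log axis) of the 10 Sonic hedgehog pathway probe sets on each of the 14 arrays, by group, with a panel for each probe set and its own axis. Points are arrays (circle, square and triangle for samples 1, 2 and 3) and lines are group means. Shh and Gli1 are highest on the spinal cord array and on the number 2 ventral array, and the 3 Gli3 probe sets are higher on all 4 embryonic forebrain arrays than on the 9 adult ones.

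Shh, the ligand, was dim in most spheres and highest in embryonic ventral and spinal cord spheres. Its probe set 1436869_at was detected on 6 of 14 arrays. The signals were 45.2, 5.4 and 3.3 in adult neocortex, 57.9, 13.5 and 28.3 in adult SVZ and 47.7, 283.0 and 62.1 in adult striatum. In the embryo they were 71.8 and 4.2 in dorsal forebrain, 134.5 and 625.6 in ventral forebrain and 781.1 in spinal cord. No neocortical or SVZ array reached detection, while 2 of 3 striatal, 1 of 2 dorsal and both ventral arrays did. Ordered by mean, spinal cord came first, then embryonic ventral (380 ± 347, SD, n = 2), striatum (131 ± 132, SD, n = 3), embryonic dorsal (38.0 ± 47.8, SD, n = 2), SVZ (33.2 ± 22.6, SD, n = 3) and neocortex (18.0 ± 23.6, SD, n = 3). The ranges of every pair of neighbouring replicated groups in this order overlapped. Because the ligand probe set passed the detection filter through the groups where it is high, its presence among the tested probe sets is no support for a difference.

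The ventral-derived spheres were compared with the dorsal-derived ones, giving each age the same weight. None of the 8 tested probe sets was called, against 0.764% of all tested probe sets, and 2 of 8 had an unadjusted p under 0.05, against 8.88%. The Shh difference was 1.83 ± 0.51 (log2, SE, 95% interval 0.74 to 2.93) higher in ventral-derived spheres, with an unadjusted p of 0.0031 and an adjusted p of 0.167 (limma). Without the number 1 embryonic arrays it was 2.75 with an adjusted p of 0.0208, on 1 array in each embryonic group, and without the number 2 arrays it was 0.92 with an adjusted p of 0.661. Its size also followed the pseudocount, from 1.06 with 4 times the pseudocount to 2.57 with a pseudocount of 6.75. The other probe set past an unadjusted 0.05 was Hhip 1421426_at, which is described with the inhibitor.

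Within the embryo, none of the 8 tested probe sets was called (0.0398% of all tested probe sets were), and 3 of 8 had an unadjusted p under 0.05 (4.86% of all). Those were Shh, Gli1 and Ptch1 1428853_at, each with a higher level in ventral spheres. Gli1, like Shh, passed the detection filter only through groups where it is high, so its place in this count is no support. For Shh the ventral array exceeded the dorsal array of its own number by 0.65 for number 1 and by 4.29 for number 2 on the log2 scale. The fitted difference was 2.47 ± 0.83 (SE, adjusted p = 0.707, limma). The 2 groups of arrays did not overlap for 4 of the 8 tested probe sets, namely Shh, Ptch1 1428853_at, Hhip 1438083_at and Gli1, against 25.0% of all tested probe sets, and all 4 were higher in ventral spheres. The places of Shh and Gli1 in this count are no support either, for the same reason. For Gli1 the dorsal signals, 5.7 and 6.4, and that of ventral sample 1, 13.2, were all near background. The summed signals of the ventral forebrain genes were 2246 and 13910 on the dorsal arrays and 17350 and 67650 on the ventral arrays (numbers 1 and 2). Summed mesenchymal signals were 1741 and 30140 on the dorsal and 1410 and 2454 on the ventral arrays, and the ependyma and choroid genes summed to 6456 and 31720 and to 1837 and 1028. The part of these cells in the Shh, Ptch1 and Gli1 differences was not tested. Against adult neocortex, with 0 of 3 arrays detected, the mean embryonic ventral Shh level was at least 5.66-fold higher, and against SVZ at least 4.62-fold. These bounds are set by the lowest detected signal of each array or the probe set's own signal where that was higher. They take the mean of the 2 ventral arrays, at 7.294 and 9.233 on the centred log2 scale, and would be lower for ventral sample 1 alone. The bounds are a description without a test of their own.

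Among adult spheres, Shh was 1.72 ± 0.67 (log2, SE) higher in striatum than in neocortex, with an unadjusted p of 0.0245 and an adjusted p of 0.477 (limma). The lowest striatal signal, 47.7, lay just above the highest neocortical one, 45.2, and Shh was the 1 probe set of the 8 whose groups did not overlap (18.8% of all). Striatal sample 2 alone had a signal above 100 among the adult arrays, and without it the difference was 1.09 with an adjusted p of 0.822. In the striatum minus neocortex comparison 0 of 8 tested probe sets were called (0.471% of all, limma) and 1 had an unadjusted p under 0.05 (8.88% of all). Deviations of same-numbered neocortical and striatal arrays from their group means correlated weakly (0.25, 0.11 and 0.11). That is too little to show that the numbers pair samples. With the number as a block the share of all tested probe sets called rose to 2.36%, while 0 of the 8 were called. The other Shh probe set, 1427571_at, was not detected on any array (signals 10.9 to 178.2) and was not tested.

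**Figure D2:**
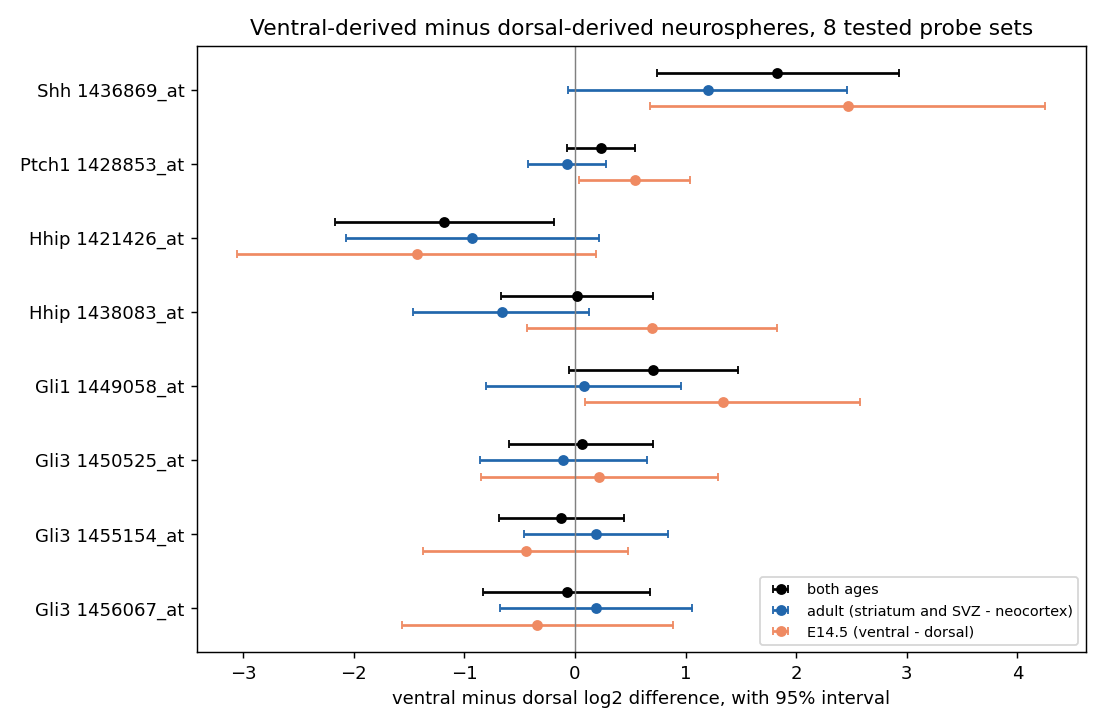
Log2 difference of ventral-derived minus dorsal-derived spheres for the 8 tested probe sets, with 95% intervals, over both ages (black), in adults (striatum and SVZ minus neocortex, blue) and at E14.5 (orange). The largest positive difference over both ages is that of Shh (1.83) and the lowest is that of Hhip 1421426_at (-1.18). The Gli3 intervals all include 0.

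Ptch1, the receptor and also a target of the pathway, was bright in all spheres on probe set 1428853_at only, and its other probe sets were dim. Its probe set 1428853_at gave 14115.9, 14352.9 and 15582.6 in neocortex, 12430.1, 13121.2 and 12632.1 in striatum and 12433.6, 11057.2 and 13994.7 in SVZ. The embryonic signals were 10678.0 and 5788.5 in dorsal forebrain, 11990.2 and 12232.2 in ventral forebrain and 13307.5 in spinal cord. Dorsal sample 2 was the lowest of the 14 arrays. Neocortex had the highest mean (14684 ± 787, SD, n = 3) and embryonic dorsal forebrain the lowest (8233 ± 3457, SD, n = 2), while striatum (12728 ± 355, SD, n = 3), SVZ (12495 ± 1470, SD, n = 3) and embryonic ventral forebrain (12111 ± 171, SD, n = 2) lay close together between them.

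In the embryo the Ptch1 difference, ventral minus dorsal, was 0.54 ± 0.23 (log2, SE, 95% interval 0.04 to 1.04, unadjusted p = 0.0354, adjusted p = 0.961, limma). By number it was 0.10 for number 1 and 0.98 for number 2. Without dorsal sample 1 it was 1.00 with an adjusted p of 0.0464, and with number 2 alone, which sets 1 array against 1, the adjusted p was 0.0387. In adults the difference was -0.07 ± 0.16 (SE, 95% interval -0.42 to 0.28, adjusted p = 0.861, limma), and 0 of 8 tested probe sets were called in that comparison (4.63% of all) or had an unadjusted p under 0.05 (19.5% of all). The ventral minus dorsal difference itself was tested between the ages. It was called for 0 of the 8 (0.511% of all, limma), with 0 at an unadjusted p under 0.05 (12.2% of all). For Ptch1 1428853_at the adult difference was 0.61 lower than the embryonic one on the log2 scale (a value of -0.61 ± 0.28, SE, adjusted p = 0.41). Without embryonic dorsal sample 1 this was -1.07 with an adjusted p of 0.034, and with the number 2 embryonic arrays alone, 1 dorsal and 1 ventral, -1.05 with an adjusted p of 0.0259, the embryonic spread being borrowed from the other groups in both. The dimmer 1439663_at gave signals of 3.2 to 191.8 and was detected on 1 adult array.

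Hhip, a membrane protein that binds and sequesters hedgehog ligands, was dim and did not move the same way in its probe sets. Probe set 1421426_at gave 111.3, 253.1 and 233.4 in neocortex, 71.5, 134.7 and 97.9 in striatum, 64.1, 10.7 and 139.4 in SVZ, 241.6 and 152.4 in embryonic dorsal, 10.6 and 170.5 in embryonic ventral and 191.3 in spinal cord. Ventral sample 1 was the lowest of the 14. Over both ages the ventral-derived spheres were lower by -1.18 ± 0.46 (log2, SE, unadjusted p = 0.0234, adjusted p = 0.435, limma). The embryonic difference was -2.90 for number 1 and 0.04 for number 2. Probe set 1438083_at gave 153.0, 90.0 and 70.9 in neocortex, 42.3, 124.6 and 63.8 in striatum, 5.6, 33.7 and 48.2 in SVZ, 69.6 and 23.7 in embryonic dorsal, 96.5 and 89.7 in embryonic ventral and 232.9 in spinal cord. Its ventral minus dorsal difference over both ages was 0.02 ± 0.32 (SE, 95% interval -0.67 to 0.71).

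In SVZ against neocortical spheres all 3 SVZ signals of Hhip 1438083_at lay below all 3 neocortical ones. The difference was -1.05 ± 0.43 (log2, SE, unadjusted p = 0.0278, adjusted p = 0.133, limma). In that comparison 0 of 8 tested probe sets were called (10.5% of all, limma), 1 of 8 had an unadjusted p under 0.05 (26.4% of all) and 1 of 8 had groups that did not overlap (37.1% of all). The Hhip probe set outside the chosen 10, 1455277_at, gave 363.1, 490.4 and 288.6 in neocortex, 119.7, 356.4 and 185.7 in striatum and 79.5, 69.5 and 130.8 in SVZ. It was called as lower in SVZ, by -1.56 ± 0.38 (log2, SE, adjusted p = 0.0224, limma), a 2.94-fold difference. That call was lost without neocortex sample 1 or 2 or SVZ sample 1 or 2, with adjusted p from 0.0527 to 0.0899 and differences from -1.56 to -1.38. Across the 14 arrays 1455277_at and 1438083_at had a Pearson correlation of 0.84, and 1421426_at and 1438083_at one of 0.17. These correlations are descriptions over arrays that share group and depth.

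Cell type markers moved in the same comparison. All 4 tested oligodendrocyte genes and 5 of 7 microglia genes were lower in SVZ than in neocortex, while 4 of 6 astrocyte genes were higher and 1 was lower. Summed over the list, oligodendrocyte signals were 18070 to 24670 in SVZ and 79770 to 106900 in neocortex. Summed microglia signals were 1477 to 2001 and 31790 to 45080, with Aif1, Cx3cr1, Csf1r, Itgam and C1qa not detected on any SVZ array. Summed astrocyte signals were 105100 to 111800 in SVZ and 47370 to 49200 in neocortex. The part of these cell types in the Hhip difference was not tested. Between SVZ and striatum 0 of the 8 Sonic hedgehog pathway probe sets were called (2.31% of all, limma), with 0 at an unadjusted p under 0.05 (16.0% of all). These adult comparisons share arrays and are not independent of each other.

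Gli1, the activator whose transcript is a standard readout of hedgehog signalling, was near background in nearly all spheres. Its signals were 7.6, 24.9 and 7.2 in neocortex, 20.2, 8.8 and 11.3 in striatum and 5.9, 12.3 and 6.4 in SVZ. They were 5.7 and 6.4 in embryonic dorsal, 13.2 and 166.8 in embryonic ventral and 329.2 in spinal cord. It was detected on 1 of 2 embryonic ventral arrays and on the spinal cord array, and on 0 of 9 adult arrays. By bounds set as for Shh, spinal cord Gli1 was at least 6.07-fold above neocortex, 6.17-fold above striatum, 5.80-fold above SVZ and 6.87-fold above embryonic dorsal forebrain, with no test because there is 1 spinal cord array. The embryonic ventral minus dorsal difference was 1.34 ± 0.58 (log2, SE, unadjusted p = 0.0372, adjusted p = 0.963, limma), 0.24 for number 1 and 2.44 for number 2.

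The spinal cord array was the highest of the 14 for Shh, Gli1, Hhip 1437933_at and Hhip 1438083_at, 4 of the 10 probe sets. Among the 8 tested probe sets it was 3 of 8 after centring, against 7.74% of all tested probe sets. Gli1 is among the 3 and reached the filter of 2 arrays only because the spinal cord array detected it, so the filter fixes part of this count. For Shh it exceeded the next array, ventral sample 2, by 0.12 on the log2 scale, and for Gli1 by 0.69. By the same kind of bound, Shh was at least 12.0-fold higher in spinal cord than in neocortex and at least 9.82-fold higher than in SVZ. Hhip 1437933_at had a signal of 99.4 there and at most 49.5 on the 13 forebrain arrays, where it was not detected. The place of Ptch1 1428853_at on this array followed the scaling, with rank 5 of 14 in deposited signal, rank 13 after centring and rank 2 with quantile normalization. The 3 Gli3 probe sets lay within the embryonic forebrain range or below it. With 1 array there is no replicate check. The mesenchymal and muscle signals given above were high on this array. Of the floor plate genes, Foxa1 and Foxa2 were not detected on enough arrays to be tested. The other floor plate genes, Spon1 and Ntn1, summed to 18980 here. Their sums were 1035 to 15820 on the embryonic forebrain arrays and 9753 to 22700 on the adult arrays. The part of any of these cells was not tested.

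**Figure D3:**
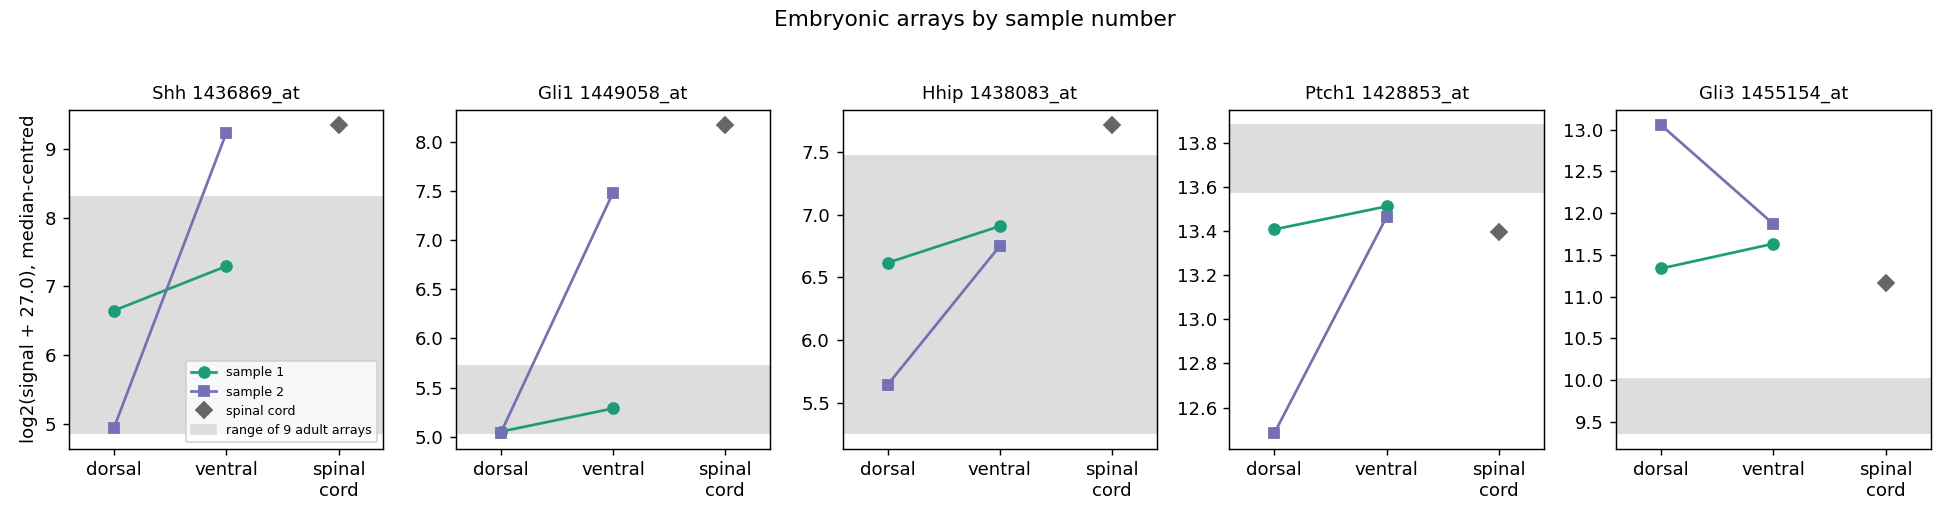
Median-centred log2(signal + 27) of 5 probe sets on the embryonic arrays. Lines join the dorsal and ventral arrays of the same sample number (number 1 green, number 2 purple), the grey diamond is the spinal cord array and the shaded band is the range of the 9 adult arrays. The dorsal to ventral step is larger for number 2 than for number 1 in Shh (4.29 and 0.65), Gli1 (2.44 and 0.24) and Ptch1 (0.98 and 0.10), and for Gli3 1455154_at the steps run in opposite directions (-1.18 and 0.30).

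Adult and embryonic forebrain spheres differed in Gli3 and Ptch1. Of the 8 tested probe sets 4 were called, against 41.2% of all tested probe sets, with 4 of 8 at an unadjusted p under 0.05 (48.8% of all). Of the 4, 3 were lower in adults (19.6% of all) and 1 was higher (21.6% of all). After centring, the same 4 had groups of arrays that did not overlap, against 20.0% of all tested probe sets. The share called among the 8 is thus close to that of the whole array.

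All 3 probe sets of Gli3, the main repressor-forming Gli factor, were lower in adult spheres. Probe set 1455154_at gave 894.0, 701.6 and 775.1 in neocortex, 564.3, 926.0 and 1037.6 in striatum, 684.1, 848.1 and 885.1 in SVZ, 2523.7 and 8614.6 in embryonic dorsal, 3242.5 and 4035.7 in embryonic ventral and 2822.2 in spinal cord. Every embryonic signal was above every adult one. The adult level was lower by -2.23 ± 0.26 (log2, SE), a 4.69-fold difference with an adjusted p of 2.52e-05 (limma). For 1456067_at the signals were 223.0, 136.9 and 393.0 in neocortex, 402.6, 240.4 and 270.5 in striatum, 165.3, 203.6 and 197.9 in SVZ, 538.1 and 2048.7 in embryonic dorsal, 682.2 and 1133.2 in embryonic ventral and 582.1 in spinal cord, and the difference was -1.83 ± 0.34 (3.55-fold, adjusted p = 0.000934, limma). For 1450525_at they were 186.1, 546.6 and 370.4 in neocortex, 167.9, 380.7 and 277.4 in striatum, 280.7, 349.1 and 259.3 in SVZ, 677.3 and 999.6 in embryonic dorsal, 667.7 and 1551.7 in embryonic ventral and 508.2 in spinal cord, and the difference was -1.45 ± 0.30 (2.74-fold, adjusted p = 0.0017, limma). The spinal cord signal of 1450525_at lay below that of adult neocortex sample 2. With the number 1 embryonic arrays alone the differences were -1.74, -1.21 and -1.05 in the same order, and all 3 stayed called with adjusted p of at most 0.0412.

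No Gli3 probe set was called between ventral and dorsal spheres. Over both ages the ventral minus dorsal differences were -0.13 ± 0.26 for 1455154_at, -0.07 ± 0.35 for 1456067_at and 0.06 ± 0.30 for 1450525_at (log2, SE), with 95% intervals reaching from -0.83 to 0.71 over the 3. In the embryo 1455154_at was lower in ventral than dorsal spheres for number 2 (-1.18) and higher for number 1 (0.30). Its fitted embryonic difference was -0.44 ± 0.43 (SE, 95% interval -1.37 to 0.48). The embryonic intervals were -1.56 to 0.89 for 1456067_at and -0.85 to 1.29 for 1450525_at. With 2 arrays a group, these intervals leave room for a difference in either direction. Among adult regions this probe set averaged 843 ± 247 in striatum, 806 ± 107 in SVZ and 790 ± 97.1 in neocortex (SD over 3 arrays), means that lie closer together than the striatal arrays do.

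Ptch1 moved the other way. Probe set 1428853_at was 1.44-fold higher in adult spheres, at 0.53 ± 0.14 (log2, SE, adjusted p = 0.00798, limma), with every adult array above every embryonic forebrain array after centring. In deposited signals the groups overlapped, as adult SVZ sample 2 (11057.2) lay below both embryonic ventral arrays (11990.2 and 12232.2). The call of 1428853_at rested on the number 2 arrays. It was lost with number 1 alone (0.29, adjusted p = 0.0683), and without dorsal sample 2 the difference was 0.30 with an adjusted p of 0.0421. The other Ptch1 probe set with calls, 1450824_at, which is outside the chosen 10, was higher in adults by 0.92 ± 0.24 (SE, adjusted p = 0.00735, limma), and lost the call with number 1 alone (0.77, adjusted p = 0.0669) and without dorsal sample 2 (0.68, adjusted p = 0.0556). Across the 14 arrays Ptch1 1428853_at and Gli3 1455154_at had a Pearson correlation of -0.87, a description over arrays that fall into an adult and an embryonic cluster.

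Shh and Gli1 did not pass the threshold between the ages. The adult minus embryonic difference was -0.91 ± 0.50 for Shh (log2, SE, adjusted p = 0.164, limma) and -0.41 ± 0.35 for Gli1 (adjusted p = 0.374). Without embryonic ventral sample 1 the differences were -1.39 for Shh and -0.96 for Gli1, and with number 2 alone Gli1 had -0.95. In these fits ventral sample 2 was the whole embryonic ventral group. Gli1 was detected on 1 of the 13 forebrain arrays and passed the detection filter only through groups where it is high. These larger Gli1 differences are therefore no support for a difference between the ages. Without ventral sample 2 the sign of the Gli1 difference turned (0.14). Hhip differed by 0.02 ± 0.45 for 1421426_at and 0.02 ± 0.31 for 1438083_at (SE), with 95% intervals of -0.95 to 1.00 and -0.66 to 0.70.

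Because Gli3 and Ptch1 carried the called differences, the 250 bases before their annotated starts are shown, in the direction of transcription, from RefSeq for GRCm38.p6, with CpG dinucleotides in capitals. The Gli3 window is chr13:15463473-15463722 on the plus strand and the Ptch1 window is chr13:63565736-63565985 on the minus strand.
Gli3: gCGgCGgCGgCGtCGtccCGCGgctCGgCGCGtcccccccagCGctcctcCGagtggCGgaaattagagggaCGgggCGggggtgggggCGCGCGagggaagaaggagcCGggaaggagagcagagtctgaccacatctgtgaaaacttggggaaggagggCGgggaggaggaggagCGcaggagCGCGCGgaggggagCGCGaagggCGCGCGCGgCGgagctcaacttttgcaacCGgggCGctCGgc
Ptch1: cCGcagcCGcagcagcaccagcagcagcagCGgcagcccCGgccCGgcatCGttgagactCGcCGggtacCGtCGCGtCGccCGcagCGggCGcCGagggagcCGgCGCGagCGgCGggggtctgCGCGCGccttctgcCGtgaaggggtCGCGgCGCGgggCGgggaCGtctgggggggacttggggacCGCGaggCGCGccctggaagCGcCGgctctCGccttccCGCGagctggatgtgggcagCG
The Gli3 window holds 34 CpGs at 72.8% G and C, and the Ptch1 window 41 at 78.4%, against medians of 6 CpGs and 52.4% over 32851 such windows. The GLI motif TGGGTGGTC, searched on both strands with GACCACCCA as its reverse complement, was in neither window, and 0.225% of all windows held it. Windows were matched for 3 of the 5 genes, Gli3, Ptch1 and Hhip.

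The other genes of the pathway were counted from a list of 40 genes outside the 5, of which 37 were tested, with the brightest tested probe set standing for each gene. Between ventral-derived and dorsal-derived spheres 0 of the 37 were called over both ages, in adults or in the embryo. Of all tested probe sets 0.764%, 4.63% and 0.0398% were called, in that order. The median log2 differences were 0.07, 0.28 and -0.09, against 0.03, 0.13 and -0.07 over all tested probe sets. Smo, the transducer held inactive by Ptch1, was called as higher in SVZ than in neocortical spheres (6771 ± 772 against 4152 ± 193, SD, n = 3 each, log2 difference 0.91 ± 0.23 SE, adjusted p = 0.0278, limma). That call is of the brightest Smo probe set only. The other tested Smo probe sets were not called, at 0.66 (adjusted p = 0.177, limma) and 0.07 (adjusted p = 0.853, limma). The call was lost with quantile normalization (0.65, adjusted p = 0.0999) and on the deposited scale (0.70, adjusted p = 0.0713). It was also lost without the variance trend (adjusted p = 0.0591) and without any of 3 neocortical samples or SVZ sample 1 or 2 (adjusted p from 0.057 to 0.107). Nkx6-2, a homeodomain factor of hedgehog-patterned progenitors, was lower in SVZ than in neocortical spheres by -1.19 ± 0.24 (SE, adjusted p = 0.00817, limma). The other 35 were not called in this comparison, in which 10.5% of all tested probe sets were called. The oligodendrocyte genes Mog (-4.54), Mag (-3.55), Mobp (-3.07) and Mbp (-1.43) were lower in this comparison as well. The part of oligodendrocytes in the Nkx6-2 difference was not tested. The transcription factor Gli2 (1.10 ± 0.41, adjusted p = 0.11), the inhibitor Sufu (0.75 ± 0.24, adjusted p = 0.0656) and the co-receptors Boc (0.57 ± 0.44), Cdon (0.19 ± 0.52) and Gas1 (0.59 ± 0.49) did not pass (log2, SE).

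Between adult and embryonic forebrain spheres 11 of the 37 genes were higher in adults, 11 were lower and 15 did not pass, where 21.6% and 19.6% of all tested probe sets were higher and lower. The median over the 37 was 0.01, the same as over all tested probe sets. Among receptors, the Shh co-receptors Cdon (786 ± 569 in adults, SD, n = 9, and 3524 ± 1850 in the embryo, SD, n = 4) and Boc (255 ± 67.3 and 786 ± 635) were lower in adults, by -2.07 ± 0.38 and -1.19 ± 0.33 (log2, SE, adjusted p = 0.000806 and 0.0108, limma). Boc lost its call with number 1 alone (-0.50, adjusted p = 0.278) and without dorsal sample 2 or ventral sample 2 (-0.75 and -0.94, adjusted p = 0.0806 and 0.0676). Gas1 (-0.14 ± 0.36) and Smo (0.21 ± 0.17) did not pass. Gli2, the main activating Gli factor, was lower in adults by -1.73 ± 0.31 (adjusted p = 0.000616), so that 2 of the 3 Gli genes were lower and Gli1 did not pass. Gpr161, a ciliary receptor that restrains the pathway, was lower by -2.07 ± 0.22, while Sufu did not pass (-0.41 ± 0.18).

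Among the ligand and ligand-release genes 1 of 7 tested rose in adults and 2 fell. Dhh, another hedgehog ligand, had signals of 6983.5 to 21284.2 on the adult arrays and 65.7 to 5368.4 on the embryonic forebrain ones (log2 difference 4.41 ± 0.92 SE, adjusted p = 0.00194, limma). The difference was 1.70 with number 1 alone and 7.13 with number 2 alone. Scube1, of a family that releases hedgehog ligands from cells, was not detected on any adult array and gave 181.0 to 854.7 in the embryo (adjusted p = 0.000174, limma). It passed the detection filter only through embryonic arrays, where it is high. Its place among the genes lower in adults is therefore no support for a difference. Scube3, of the same family, was lower by -1.64 ± 0.51 (SE, adjusted p = 0.0193) but by -0.33 with number 1 alone (adjusted p = 0.539). Among targets, Mycn was lower in adults by -3.55 ± 0.42 (adjusted p = 3.29e-05), Ccnd1 higher by 1.77 ± 0.39 (adjusted p = 0.00281), Nkx2-2 higher by 2.47 ± 0.77 (adjusted p = 0.0212) and Olig2 higher by 2.26 ± 0.85 (adjusted p = 0.0477, SE for each). Nkx2-2 and Olig2, which are also oligodendrocyte lineage genes, differed by 0.23 and -0.10 with number 1 alone and by 4.71 and 4.62 with number 2 alone. Both lost their calls without dorsal sample 2 (1.17 and 0.65, adjusted p = 0.127 and 0.284) and without ventral sample 2 (1.52 and 1.51, adjusted p = 0.14 and 0.232). Olig2 lost its call in 17 of 27 alternatives and changed sign in 1 more. The 17 included quantile normalization (2.16, adjusted p = 0.0588, limma), values as deposited, no variance trend and each adult array left out in turn. Ccnd1 differed by 0.62 with number 1 alone and by 2.92 with number 2 alone. Rab34 (1.25), Tulp3 (1.32) and Nkx6-2 (1.27) were also higher in adults. The remaining called genes that were higher were Evc2 (0.82), Prkaca (0.59), Ccnd2 (0.34) and Prkar1a (0.24, or 0.09 and not called with quantile normalization). Those that were lower were Ift88 (-1.23), Kif7 (-0.53), Bcl2 (-0.53) and Gsk3b (-0.28). Each of these 8 lost its call with an embryonic array or number left out. Kif7 and Prkaca lost theirs in 14 of 27 alternatives each, array weights and left-out adult arrays among them.

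**Figure D4:**
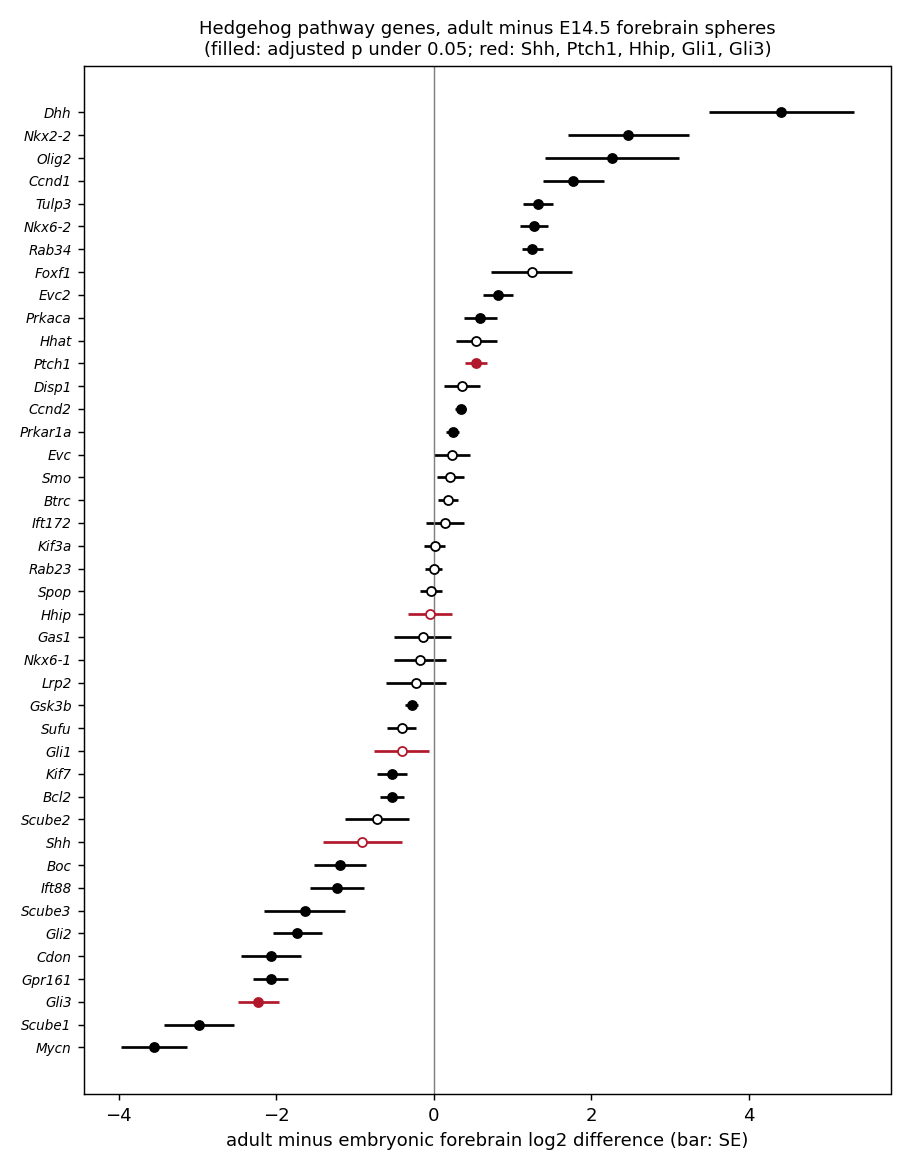
Log2 difference of adult minus embryonic forebrain spheres, with SE, for the 42 tested genes of the hedgehog pathway list, each by its brightest tested probe set. Filled points passed an adjusted p of 0.05 and red points are Shh, Ptch1, Hhip, Gli1 and Gli3. Dhh is highest (4.41) and Mycn lowest (-3.55), and Gli3 is among the lowest (-2.23).

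Cell type markers moved strongly with age. All 6 neuronal genes were lower in adults, and all 6 astrocyte and all 4 tested oligodendrocyte genes were higher. Summed neuronal signals were 6626 to 12050 in adult and 47610 to 109100 in embryonic forebrain spheres, summed astrocyte signals 47370 to 111800 and 12150 to 34600, and summed oligodendrocyte signals 18070 to 106900 and 166.9 to 628.9, with Mag and Mobp not detected in the embryo. Oligodendrocyte precursor genes, summed over 5, gave 36780 and 24860 on the number 1 dorsal and ventral arrays and 1647 and 2952 on the number 2 arrays. Their part in the Gli3, Ptch1 and Nkx6-2 differences was not tested.

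The transcripts most like each gene were named by the highest Pearson correlation over the 14 arrays among tested probe sets of other genes, as descriptions over arrays that share group. For Shh they were Resp18 (0.924), Sorcs3 (0.871) and Nova1 (0.859). For Ptch1 they were Aifm2 (0.937), Erbin (0.932) and Ptdss2 (0.922), and for Gli3 1455154_at Nrarp (0.968), Zfp160 (0.966) and Cand2 (0.964). Gli1 was most like Ebf1 (0.969), Otp (0.960) and Olig3 (0.925), and Hhip 1455277_at most like 3 probe sets of Atp8a1 (0.880 to 0.898). Shh and Gli1 had a correlation of 0.74 over the 14 arrays and 0.60 over the 13 forebrain arrays. Gli1 was detected on 2 of the 14 arrays, so its correlations rest largely on those 2. Without the spinal cord array its correlations with Ebf1, Otp and Olig3 were 0.942, 0.903 and 0.837.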

How the data were processed

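Total RNA of 14 samples was hybridised to Affymetrix mouse expression arrays, 1 array a sample, per the labels. The authors deposited a linear intensity (Signal) for each probe set and array and, per the file headers, a detection p-value. The sources used here give neither scaling target nor algorithm version. Detection columns name the group but not the sample, so detection is counted per group.

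Arrays were grouped by title. Genes came from the platform annotation, with 34958 of 45101 probe sets paired with 1 gene, 932 with several and 9211 with none. A pseudocount of 27.0 (0.1 times the median of array medians) was added, values were taken to log2, each array was centred on its median, and 64 control probe sets were left out. Detection on at least 2 arrays kept 35211 probe sets and left out 9826. The values were fitted with limma 3.58.1 in R 4.3.3, as 6 group means with a variance trend, and p-values were adjusted by Benjamini-Hochberg over the tested probe sets. The procedure was tested on simulated data. The number of arrays limits the precision.

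Members and gene lists were chosen with earlier results of these data known. The rule for naming genes of the lists took those called, the 4 largest rises and falls of a list and fixed companions (Smo, Gli2, Sufu, Boc, Cdon and Gas1). Region and cell type genes are given mainly as counts and summed signals, and some listed genes are not analysed here. Deviations of same-numbered adult arrays correlated weakly, at 0.25, 0.11 and 0.11 for neocortex and striatum. The values were 0.15, 0.13 and 0.05 for striatum and SVZ and 0.03 to 0.06 for neocortex and SVZ. The labels state no pairing. Alternatives were other scalings, pseudocounts, filters, weights, blocks and left-out arrays.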

Additional observations from a re-analysis of the deposited data

How the results depend on the processing

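The count of Sonic hedgehog pathway probe sets called was unchanged under other scalings, pseudocounts, detection filters, array weights and variance models. In the embryonic ventral minus dorsal comparison and in its comparison between the ages it went from 0 to 1 without embryonic dorsal sample 1, so that leaving out arrays gave 0 to 1 in each, and 4 to 6 between adult and embryonic forebrain. With the number 2 embryonic arrays only, chosen after seeing the data, it was 1 over both ages, 1 in the embryo and 1 for the difference between ages. The count of hedgehog pathway list genes called between the ages was 24, 16 to 26 with an array left out and 14 at an adjusted p under 0.01, and 38 to 55 genes of the region and cell type lists were called with an array left out. Signs turned for Hhip 1421426_at in the embryo with number 2 only (0.04), for Gli1 between the ages without ventral sample 2 or with number 1 only (0.14 each, against -0.96 without ventral sample 1), and for Olig2 with number 1 only (-0.10), and the cause was not tested.

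With the replicate number as a block, the counts of pathway probe sets called were 0 in each regional and ventral-dorsal comparison and 4 between the ages, and the adjusted p of Shh over both ages was 0.0776. The block moved the count over all tested probe sets from 166 to 831 for striatum against neocortex, from 3703 to 8410 for SVZ against neocortex, from 14 to 134 for the embryonic comparison and from 269 to 1137 over both ages. The pairing correlation, taken on deviations from group means, was 0.58 in the embryo. With 2 arrays a group the deviations mirror each other, so numbers 1 and 2 give the same value by construction. This single value is too little to show that the numbers pair samples. The median difference of all probe sets, SVZ minus neocortex, was 0.16 after centring and -0.05 as deposited. Dim probe sets limit what could be seen: Gli1 was near background on 12 arrays, and 2 of the 10 probe sets could not be tested.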
